A study of Mus musculus with 6 samples.

Results

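The 10 CC chemokine ligands Ccl2, Ccl3, Ccl4, Ccl5, Ccl6, Ccl7, Ccl8, Ccl9, Ccl12 and Ccl22 were followed in MΦs of the colonic lamina propria. They were taken by gene symbol from the 14097 genes of the RNA-seq table, which lists all 10. The cells were P3/P4 MΦs, sorted as CD45+CD11b+CD11cintCD103-CD64+Ly6C-MHCII+, from untreated mice on the 129SvEv background that were either Il10rb-/- (KO), lacking the signalling chain of the IL10 receptor in all cells, or Il10rb+/- (Het), which keep 1 intact allele and served as controls. Each genotype gave 1 library at 1 week, 1 at 3 weeks and 1 at 12 weeks of age. A library at 3 or 12 weeks came from 1 mouse, and a library at 1 week from colons pooled from 3 to 5 mice per the labels. There were thus no replicates within an age, and a difference at a single age describes those libraries only.

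CC chemokines are small secreted proteins named for adjacent cysteines near their amino terminus. They bind receptors coupled to G proteins and draw leukocytes along a gradient. Ccl2, Ccl7 and Ccl12 are ligands of CCR2, the receptor on which classical monocytes depend to leave the bone marrow and enter tissue, where they replenish gut MΦs. Ccl3, Ccl4 and Ccl5 are inflammatory chemokines that draw T cells, NK cells and monocytes, and Ccl3 and Ccl5 act on CCR1. Ccl6 and Ccl9, which rodents but not humans carry, act on CCR1, mouse Ccl8 acts on CCR8, and Ccl22 acts on CCR4, found on regulatory and type 2 helper T cells. Reads were assigned to genes, so the values measure RNA and not secreted protein.

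Of these ligands, 9 lie in 2 groups of neighbours on chromosome 11 of GRCm38, the assembly also called mm10. The first spans 81.2 kb from 82035571 to 82116799 and holds Ccl2, Ccl7, Ccl11, Ccl12 and Ccl8 in that order. The second spans 139 kb from 83525778 to 83664683 and holds Ccl5, Ccl9, Ccl6, Ccl3 and Ccl4. Ccl22 stands apart on chromosome 8, from 94745590 to 94751699, near Ccl17. Although the family is built from duplicated genes, none of the 75-base stretches of a ligand's annotated transcripts occurred in a transcript of another gene, so reads of that length could be told apart (0 of 2971 stretches for Ccl9, the longest). Ccl2 and Ccl6 each overlap a gene on the opposite strand, E230016K23Rik in the case of Ccl6, without sharing an exon.

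RefSeq windows of 250 bases upstream of a start site were at hand for 6 of the 10 ligands on GRCm38.p6. They were searched on both strands for a kappaB site (GGGNNNNNCC), a GAS element (TTCNNNGAA), an interferon response core (GAAANNGAAA), an AP-1 site (TGANTCA) and a TATA box (TATAAA). The windows shown are those of Ccl12 and Ccl8, neighbours that were both over 3-fold lower in KO MΦs at 12 weeks, and of Ccl22 and Ccl9, the windows with a kappaB match. Capitals mark the matches, and each sequence runs 5′ to 3′ on the strand of its gene. Ccl12 is on the plus strand at chr11:82101595-82101844 and Ccl8 on the plus strand at chr11:82114935-82115184. Ccl9 is on the minus strand at chr11:83578637-83578886. Ccl22 is on the plus strand at chr8:94745434-94745589, where the 94 bases nearest to the RefSeq start are left out because GENCODE places them inside the gene.
Ccl12: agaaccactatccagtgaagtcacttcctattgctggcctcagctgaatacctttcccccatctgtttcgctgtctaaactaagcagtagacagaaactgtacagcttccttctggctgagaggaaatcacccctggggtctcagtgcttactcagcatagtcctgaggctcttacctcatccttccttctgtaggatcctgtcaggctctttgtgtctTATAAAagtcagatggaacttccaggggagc
Ccl8: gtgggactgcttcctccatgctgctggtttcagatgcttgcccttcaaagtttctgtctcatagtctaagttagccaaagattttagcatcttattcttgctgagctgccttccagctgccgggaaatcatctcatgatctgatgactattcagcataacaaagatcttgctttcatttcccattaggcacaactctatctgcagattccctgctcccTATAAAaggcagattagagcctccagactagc
Ccl9: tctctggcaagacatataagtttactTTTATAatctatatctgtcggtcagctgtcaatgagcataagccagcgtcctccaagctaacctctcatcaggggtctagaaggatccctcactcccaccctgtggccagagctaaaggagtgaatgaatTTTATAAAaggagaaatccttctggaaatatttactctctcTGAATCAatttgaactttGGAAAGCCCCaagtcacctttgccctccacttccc
Ccl22: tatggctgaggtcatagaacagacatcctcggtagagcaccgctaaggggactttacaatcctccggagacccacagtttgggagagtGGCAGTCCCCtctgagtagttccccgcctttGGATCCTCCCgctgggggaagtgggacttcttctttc

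Ccl12 and Ccl8 each held a TATA box on their own strand, from base 31 to base 26 and from base 32 to base 27 before the start. Ccl22 held a pair of kappaB matches on the opposite strand, GGGGACTGCC and GGGAGGATCC. Ccl9 held a kappaB match, GGGGCTTTCC, an AP-1 match, TGAATCA, and 3 TATA box matches, of which 2 overlap on opposite strands. The windows of Ccl3 and Ccl6 held no match. Among all 32851 windows in the RefSeq table, 45.8% held the kappaB pattern, 12.4% the TATA box, 7.02% the GAS element, 6.75% the AP-1 site and 2.98% the interferon core. The kappaB pattern is thus common, and no window of the 6 ligands held the GAS element or the interferon core. These are matches of letters in these windows and do not show that a factor binds.

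Depth on the listed genes ranged from 6700337 reads in the 3-week Het library to 40754971 in the 12-week Het library. The targeted gene followed the labels, as Il10rb had between 939 and 1221 normalized counts in Het MΦs and between 12.0 and 27.4 in KO MΦs. The sort was reflected in the RNA, with all 13 MΦ genes examined, Csf1r, Cd68, Fcgr1 and C1qa among them, present in every library. The libraries also differed in other ways. The 4 Y-linked genes summed to 1114 normalized counts in the 1-week Het pool and to between 9.0 and 29.3 in the other libraries, so the sexes in the 1-week pools cannot be told apart from genotype. In the 12-week KO library Ly6c2, which encodes a marker the sort selected against, had 2611 normalized counts against 143 in the 12-week Het library, the neutrophil genes S100a8 and S100a9 had 1673 and 2906 against 12.8 and 33.6, and Adgre1 and Cx3cr1 of mature MΦs had 3800 and 906 against 16537 and 8074. Of the 13 MΦ genes, 4 were higher there than in the 12-week Het library, beside 52.0% of all genes. Over 3-fold lower were 5, beside 9.99% of all genes. The median log2 ratio of the 13 was -0.38, with summed levels of 671900 against 727280. The summed level of the 9 neutrophil genes in the table was 5534 there and between 12.9 and 438 in the other libraries, where Camp and Ngp were at 0. Because these are bulk samples, fewer cells that express a gene and less RNA per cell cannot be told apart.

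The ligands differed widely in abundance, and the order was led by the same pair throughout. Compared as normalized counts per kb of exon, Ccl4 ranked 1 and Ccl3 ranked 2 in each of the 6 libraries. The level of Ccl4 per kb lay between 36102 and 84845 and that of Ccl3 between 26680 and 53906. In 12-week Het MΦs Ccl7 ranked 3 with 34741 per kb and Ccl2 ranked 4 with 28092, whereas in 12-week KO MΦs they ranked 8 and 7 with 824 and 1511. Ccl5 and Ccl22, which ranked 10 and 9 in 12-week Het MΦs, ranked 6 and 5 in 12-week KO MΦs with 2244 and 2869 per kb. Neighbours in the order were at times nearly level, as were Ccl6 and Ccl9 in 1-week Het MΦs with 390.5 and 389.8 per kb. Together the 10 ligands took 0.640%, 1.11% and 0.875% of the reads in Het MΦs at 1, 3 and 12 weeks and 0.687%, 0.750% and 0.313% in KO MΦs.

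**Figure D1:**
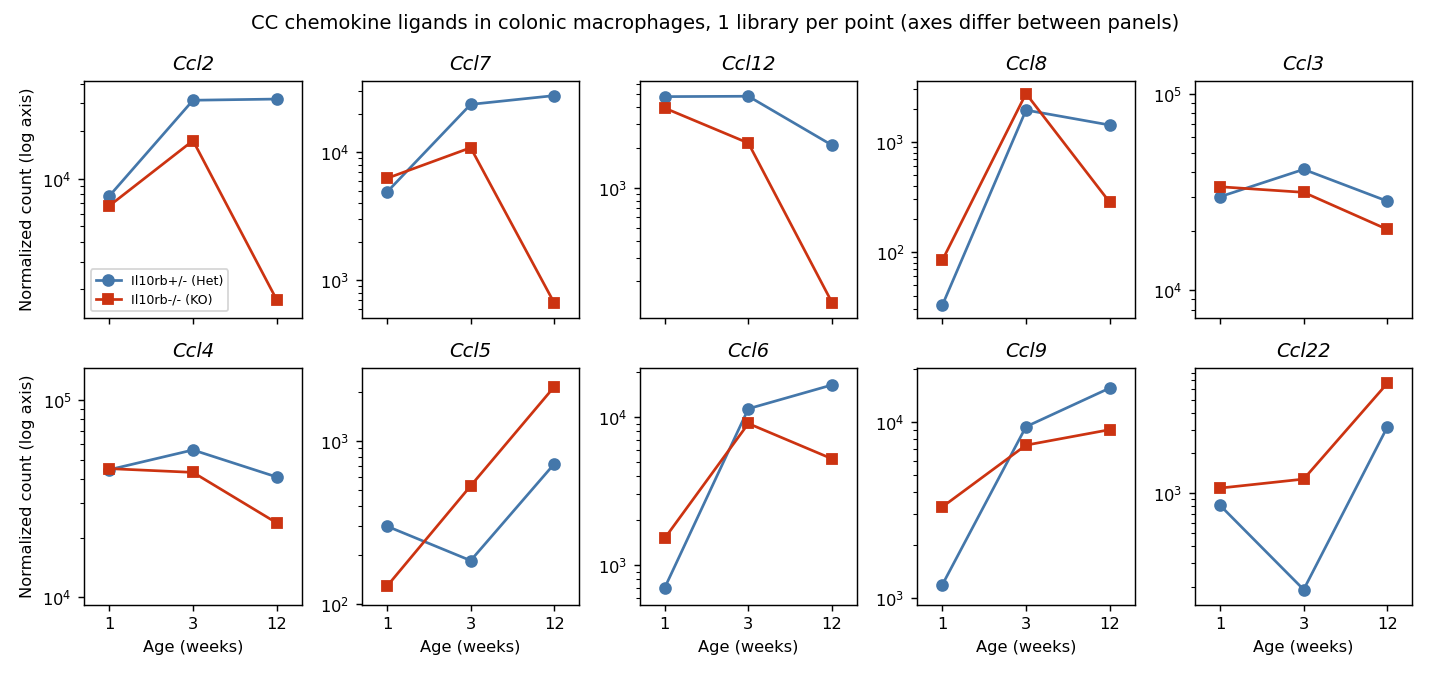
Normalized counts (log axis, range differs between panels) of the 10 CC ligands against age in weeks, with 1 library per point, blue circles for Il10rb+/- and red squares for Il10rb-/- MΦs. Ccl2, Ccl7, Ccl12 and Ccl8 are far apart at 12 weeks, where KO MΦs had 1720, 660.3, 138.2 and 282.7 normalized counts, whereas Ccl3 and Ccl4 stay near each other at every age.

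The CCR2 ligands showed the largest gap between genotypes, and it lay at 12 weeks. Ccl2, also called MCP-1, had 7794 normalized counts in Het and 6756 in KO MΦs at 1 week, 31419 and 17455 at 3 weeks, then 31968 and 1720 at 12 weeks. In order of age, the log2 ratio of KO over Het came to -0.21, -0.85 and -4.22, with an exact 95% interval of -4.27 to -4.16 at 12 weeks that covers counting error only, as do all intervals here. KO MΦs thus held less Ccl2 at each age, and 18.6-fold less at 12 weeks.

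Ccl7, or MCP-3, had 4893 normalized counts in Het and 6267 in KO MΦs at 1 week, 23751 and 10882 at 3 weeks, then 27828 and 660.3 at 12 weeks. It was slightly higher in KO MΦs at 1 week (log2 ratio 0.36) and lower at 3 weeks (-1.13) and 12 weeks (-5.40, interval -5.49 to -5.31). The 12-week gap, 42.1-fold, was the widest of any of the 10 ligands at any age. Ccl12, or MCP-5, had 4819 and 3957 normalized counts at 1 week, 4850 and 2163 at 3 weeks, then 2085 and 138.2 at 12 weeks. In order of age, its KO over Het ratios on the log2 scale came to -0.28, -1.16 and -3.92 (interval -4.12 to -3.72), so that it was 15.1-fold lower in KO MΦs at 12 weeks. Unlike Ccl2 and Ccl7, Ccl12 was level in Het MΦs at 1 and 3 weeks within counting error (log2 ratio 0.01, interval -0.07 to 0.08), and 2.33-fold lower at 12 than at 3 weeks.

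Ccl8, or MCP-2, lies beside Ccl12 but acts on another receptor. It had 32.7 normalized counts in Het and 83.9 in KO MΦs at 1 week, from 33 and 56 reads, then 1947 and 2752 at 3 weeks, and 1425 and 282.7 at 12 weeks. It was higher in KO MΦs at 1 and 3 weeks (log2 ratios 1.36 and 0.50) and 5.04-fold lower at 12 weeks (-2.33, interval -2.48 to -2.19). The other member of this chromosomal group in the table, Ccl11 (eotaxin), had 111 reads in Het and 0 in KO MΦs at 12 weeks and at most 4 reads in any library at 1 or 3 weeks. At 12 weeks, all 5 neighbours were therefore lower in the KO library.

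The levels of the genes that answer or accompany these ligands were as follows. Ccr2, the receptor for Ccl2, Ccl7 and Ccl12, had 3960 and 10700 normalized counts in Het and KO MΦs at 1 week, 20629 and 19378 at 3 weeks, then 11505 and 13311 at 12 weeks. It was thus 2.70-fold higher in KO MΦs at 1 week and differed little at 12 weeks (log2 ratio 0.21), the age at which its ligands were lowest in KO MΦs. Of the 9 monocyte genes, Ccr2 included, 7 were higher in 12-week KO MΦs, beside 52.0% of all genes, with a median log2 ratio of 2.77 over the 9. Of these 7, 6 were over 3-fold higher, beside 4.03% of all genes. The summed level of the 9 genes lay between 5743 and 41796 normalized counts in the Het libraries and between 14081 and 43282 in the KO libraries. Chil3 was at 0 in both 1-week libraries. At 12 weeks the summed level was 28803 in Het and 43282 in KO MΦs. Plac8 had 1515 and 14515 and Hp 102 and 6209 normalized counts, whereas F13a1, which also marks some tissue MΦs, had 9349 and 1039. Of the 10 fibroblast and endothelial genes, 8 were over 3-fold lower in the same library, beside 9.99% of all genes. Among them were Col3a1 with 1678 and 59.2 normalized counts in Het and KO MΦs and Dcn with 777 and 102. Also over 3-fold lower there were 6 of 7 B and plasma cell genes (median log2 ratio -2.84). Their list summed to 24766 in Het and 9822 in KO MΦs. All 3 eosinophil genes past the filter were over 3-fold lower as well (median -2.06). Of these, Ccr3 passed the filter only through the 12-week Het library, with 52.0 normalized counts there and 17.2 in KO MΦs, so the filter favoured its call. The part of these other cells in the ligand values was not tested.

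**Figure D2:**
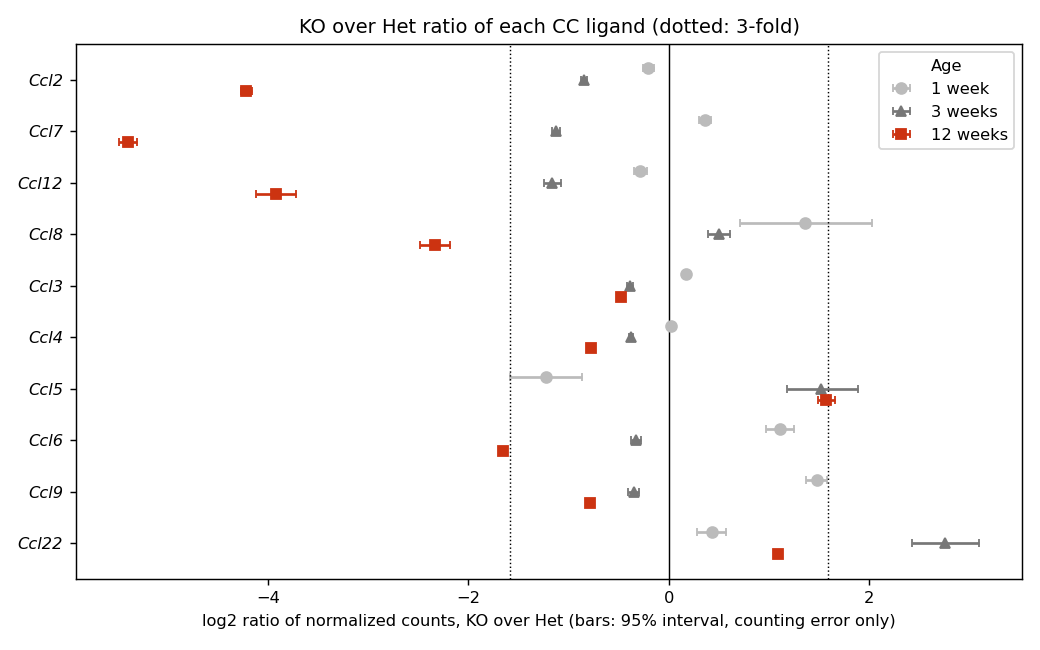
Log2 ratio of normalized counts, KO over Het, for each CC ligand at 1 week (light circles), 3 weeks (grey triangles) and 12 weeks (red squares), with exact 95% intervals of counting error as bars and dotted lines at 3-fold. At 12 weeks Ccl2, Ccl7, Ccl12, Ccl8 and Ccl6 lie beyond the lower line, and Ccl22 lies beyond the upper line at 3 weeks.

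The inflammatory pair Ccl3 and Ccl4, or MIP-1α and MIP-1β, was the most even between genotypes. Ccl3 had 29960 and 33677 normalized counts in Het and KO MΦs at 1 week, 41292 and 31554 at 3 weeks, then 28456 and 20437 at 12 weeks. Ccl4 had 44444 and 45004 at 1 week, 55998 and 43056 at 3 weeks, then 40803 and 23828 at 12 weeks. KO over Het log2 ratios were 0.17, -0.39 and -0.48 for Ccl3 and 0.02, -0.38 and -0.78 for Ccl4. At 1 week the interval for Ccl4 (-0.003 to 0.04) included 0, the only such interval between genotypes at any age, and no ratio of the pair reached 2-fold. Immediate early and heat shock genes, which respond to tissue dissociation, were abundant in every library. At 12 weeks none of the 18 was higher in KO MΦs (median log2 ratio -0.53), beside 52.0% of all genes. Egr1 had 81544 and 29137 and Atf3 65701 and 31633 normalized counts in Het and KO MΦs at that age. The part of dissociation in the levels of Ccl3 and Ccl4 was not tested.

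Ccl5, or RANTES, went the other way from its neighbours in the second chromosomal group. It had 300.4 normalized counts in Het and 128.8 in KO MΦs at 1 week, 184.9 and 531.1 at 3 weeks, then 725.3 and 2154 at 12 weeks. It was lower in KO MΦs at 1 week (log2 ratio -1.22) and higher at 3 weeks (1.52) and 12 weeks (1.57, interval 1.48 to 1.66), where the 2.97-fold gap stopped just short of 3-fold. T and NK cells make much Ccl5, and RNA of such cells was low but present. Cd3e had 39.7 and 93.0 and Cd3g 26.0 and 154 normalized counts in Het and KO MΦs at 12 weeks, and Nkg7 had 20.8 and 114, whereas Cd2 had 748 and 175 and Cd4, which MΦs also express, had 1712 and 210. Of the 7 T and NK genes past the filter, 5 were higher in KO MΦs at that age, beside 52.0% of all genes, and 2 lower. Over 3-fold higher were 2 and over 3-fold lower 2, beside 4.03% and 9.99% of all genes. Cd3e, Cd3g and Nkg7 reached the level of the filter in the 12-week KO library but not in the 12-week Het library. The filter may thus have favoured the counts of higher genes. The summed level of the 11 T and NK genes in the table, most of it Cd4 outside the 12-week KO library, lay between 1221 in 12-week KO MΦs and 3320 in 1-week Het MΦs, with 2730 in 12-week Het MΦs, and Cd8a was at 0 in 5 of the 6 libraries. The part of such cells in the level of Ccl5 was not tested.

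The CCR1 ligands Ccl6 and Ccl9 were lower at 1 week than at 3 or 12 weeks in either genotype. Ccl6 had 701.0 and 1514 normalized counts in Het and KO MΦs at 1 week, 11355 and 9026 at 3 weeks, then 16434 and 5213 at 12 weeks. Ccl9 had 1187 and 3297 at 1 week, 9437 and 7409 at 3 weeks, then 15661 and 9074 at 12 weeks. In both genes KO MΦs had the higher level at 1 week and the lower level at 3 and 12 weeks. The log2 ratios were 1.11, -0.33 and -1.66 for Ccl6 and 1.47, -0.35 and -0.79 for Ccl9, which leaves Ccl6, at 3.15-fold, just past the 3-fold line at 12 weeks and Ccl9 short of it. Ccr1, their receptor, differed less, with 13125 normalized counts in Het and 20019 in KO MΦs at 12 weeks.

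Ccl22, or MDC, had more RNA in KO MΦs at each age. It had 813.0 and 1093 normalized counts in Het and KO MΦs at 1 week, 189.8 and 1277 at 3 weeks, then 3136 and 6669 at 12 weeks. In order of age, KO over Het log2 ratios came to 0.43, 2.75 (interval 2.42 to 3.10) and 1.09, and the 6.73-fold gap at 3 weeks rests on 78 reads in the shallowest library, the 3-week Het library, against 1452 reads. Ccl17, its neighbour and the other CCR4 ligand, was 3.32-fold higher in KO MΦs at 3 weeks, from 15 and 138 reads, and nearly level at 12 weeks with 507.8 and 482.0 normalized counts. Mature dendritic cells make both ligands, and they carry Ccr7, which had 1029 and 3160 normalized counts in Het and KO MΦs at 3 weeks and 10331 and 38707 at 12 weeks. Zbtb46 and Flt3 of dendritic cells had 178 and 192 normalized counts in Het and 397 and 329 in KO MΦs at 12 weeks, but 102 and 63.3 in Het and 67.7 and 44.0 in KO MΦs at 3 weeks, where the ratio of Ccl22 was highest. The 10 dendritic cell genes, none of them at 0 in any library, summed to between 2509 and 12209 normalized counts in Het and between 4459 and 42440 in KO MΦs, with Ccr7 the bulk of the highest sums. The part of dendritic cells in the level of Ccl22 was not tested.

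Grouped mainly by receptor, the CC ligand RNA of the cells changed in make-up. CCR2 ligands took 18.4%, 33.3% and 36.7% of the reads on the 10 ligands in Het MΦs at 1, 3 and 12 weeks. In KO MΦs they took 16.7%, 24.2% and 3.59%, so that the genotypes were close at 1 week and far apart at 12 weeks. Ccl3, Ccl4 and Ccl5 together took 41.5% of these reads in 12-week Het and 66.1% in 12-week KO MΦs, while the share of Ccl22 was 1.86% and 9.50%. The summed level of Ccl3, Ccl4 and Ccl5 was nonetheless lower in 12-week KO MΦs, at 46419 normalized counts against 69985 in 12-week Het MΦs. Ccl6 and Ccl9 held a like share of these reads in either genotype at that age, 19.0% and 20.4%, although both had fewer normalized counts in KO MΦs.

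**Figure D3:**
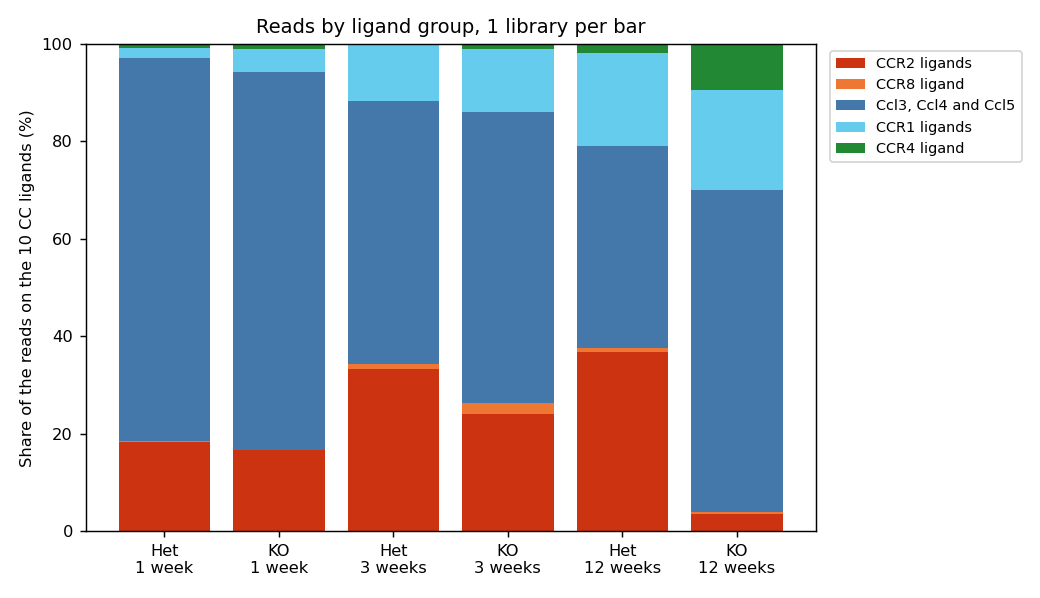
Share (%) of the reads on the 10 CC ligands in groups of ligands, 1 library per bar. CCR2 ligands (Ccl2, Ccl7, Ccl12, red) shrink to 3.59% in the 12-week KO library, where Ccl22 (green) reaches 9.50%.

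Counted over the family, the ligands stood against a background of 11067 genes that reached 50 normalized counts in at least 1 library, which all 10 ligands did. At 1 week no ligand was over 3-fold apart, where KO MΦs were over 3-fold higher at 2.75% of all genes and over 3-fold lower at 0.75%. At 3 weeks Ccl22 was over 3-fold higher and no ligand over 3-fold lower, beside 1.34% and 0.642% of all genes. At 12 weeks 5 of the 10 ligands were over 3-fold lower, beside 9.99% of all genes, and none was over 3-fold higher, beside 4.03%. The median log2 ratio of the 10 ligands was 0.26, -0.36 and -1.22 at 1, 3 and 12 weeks, and that of all genes was -0.04, 0.02 and 0.04. The 12-week libraries thus differed at many genes, and the count of ligands has no test at a single age.

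Across ages, the genotypes were compared with limma on log2 of the value plus 1, with age as a term, which takes as its error how far the gap between genotypes varied from age to age. None of the 10 ligands passed an adjusted p of 0.05. Of all genes 0% passed, Il10rb included (log2 difference -5.68, SE 0.34, adjusted p = 0.0616), while 853 genes had an unadjusted p under 0.05. Ccl22 (1.42, SE 0.44, higher in KO MΦs at 3 of 3 ages) and Ccl12 (-1.79, SE 0.67, lower at 3 of 3 ages) were among these 853, each with an adjusted p of 0.627. The adjusted p of the other 8 ligands lay between 0.627 and 0.945. For Ccl2 the difference was -1.76 (SE 0.76) and for Ccl7 -2.06 (SE 1.05), with a gap that was large at 12 weeks and small or opposite at 1 week.

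With age, 5 ligands were over 3-fold higher in Het MΦs at 3 weeks than at 1 week, namely Ccl2 (4.03-fold), Ccl7 (4.85-fold), Ccl9 (7.95-fold), Ccl6 (16.2-fold) and Ccl8 (59.5-fold), beside 5.2% of all genes. Ccl22 was 4.28-fold lower, beside 1.36%. From 3 to 12 weeks in Het MΦs Ccl5 (3.92-fold) and Ccl22 (16.5-fold) were over 3-fold higher, beside 5.41% of all genes, and no ligand was over 3-fold lower, beside 0.949%. Het MΦs thus kept the levels of Ccl2 and Ccl7 that they had at 3 weeks, within 1.17-fold.

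In KO MΦs Ccl5 (4.12-fold), Ccl6 (5.96-fold) and Ccl8 (32.8-fold) were over 3-fold higher at 3 weeks than at 1 week, beside 3.88% of all genes, and no ligand was over 3-fold lower, beside 1.15%. From 3 to 12 weeks Ccl5 (4.06-fold) and Ccl22 (5.22-fold) were higher in KO MΦs, beside 5.75% of all genes. Over the same time Ccl8 (9.74-fold), Ccl2 (10.1-fold), Ccl12 (15.7-fold) and Ccl7 (16.5-fold) were lower, beside 8.45%. Ccl5 and Ccl22 were therefore over 3-fold higher at 12 than at 3 weeks in either genotype, while the 4 ligands of the first chromosomal group were over 3-fold lower in KO MΦs only, and this difference between genotypes was not tested. These comparisons reuse the libraries of the comparisons between genotypes. In the limma fit with genotype as a term 1.69% of all genes passed the test of age, but none of the 10 ligands did. Ccl8 had the lowest adjusted p (0.0695), and 6 ligands (Ccl5, Ccl6, Ccl8, Ccl9, Ccl12 and Ccl22) had an unadjusted p under 0.05, as did 24.4% of all genes.

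Patterns over the 6 libraries were compared by the root mean square distance of centred log2 values, as a description over 6 points, the libraries, which also differ in depth. Neighbours in the genome were at times the most alike ligands, with a distance of 0.11 between Ccl3 and Ccl4, 0.42 between Ccl2 and Ccl7, and 0.57 between Ccl6 and Ccl9. The neighbours Ccl12 and Ccl8 were far apart (3.06), and the ligand nearest to Ccl8 was Ccl6 of the other chromosomal group (0.98). Outside the CC ligands, Ccl5 was nearest to Lck, a kinase of T cells (0.18), and to Rsad2, an interferon-induced antiviral gene (0.26). Ccl22 was nearest to Il1a (0.44) and to Tnfrsf8, which encodes CD30 (0.48). Ccl6 was nearest to E230016K23Rik (0.22), the gene that overlaps it on the opposite strand, and to Anxa1 (0.26). The strand setting of the counting was not given in the sources used here, so reads from introns of such a pair may not be told apart.

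The nearest genes to the CCR2 ligands were others. They were Btnl2 (0.30) and Arhgap6 (0.31) for Ccl2, Plscr4 (0.36) and the lectin gene Cd209d (0.39) for Ccl7, and C030034L19Rik (0.15) and Sat2 (0.21) for Ccl12. The nearest genes to Ccl8, the ligand with the widest spread, lay farther off than those of the other ligands, with Pdlim1 at 0.68 and Tppp3 at 0.75. The remaining nearest genes were Gpr85 (0.15) and Efna1 (0.22) for Ccl9, Mier2 (0.06) and Ssbp2 (0.08) for Ccl3, and Rhoh (0.06) and Setd1b (0.06) for Ccl4. Small distances come easily to Ccl3 and Ccl4, whose log2 values had an SD of 0.30 and 0.38 over the libraries, against 2.39 for Ccl8.

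Of 13 further CC ligand genes, 9 were in the table and 3 passed the filter of 50 normalized counts, Ccl11, Ccl17 and Ccl24. Ccl24, an eosinophil attractant acting on CCR3, had 175 and 138 normalized counts in Het and KO MΦs at 1 week, 1107 and 695 at 3 weeks, then 1055 and 114 at 12 weeks. It was thus 9.26-fold lower in KO MΦs at 12 weeks (log2 ratio -3.21, interval -3.44 to -2.99). Ccl1 and Ccl20 had at most 3 reads in each of the other libraries but 23 and 27 reads in the 12-week KO library.

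Among 10 CC receptors, 7 passed the filter. At 12 weeks KO MΦs had over 3-fold more RNA of 3 of these and over 3-fold less of 2, beside the 4.03% and 9.99% of all genes given above. Ccr8 and Ccr9 passed the filter only through the 12-week KO library, and Ccr3 only through the 12-week Het library. The filter itself thus favoured their part in these counts. With a pseudocount of 10 the log2 ratio of Ccr3 was -1.19, short of 3-fold. Ccr7 was 3.75-fold, Ccr9 6.31-fold and Ccr8, the receptor for Ccl8, 11.1-fold higher, the last from 18 and 148 reads. Ccr3 was 3.02-fold lower and Ccr6, the receptor for Ccl20, 3.88-fold lower. Ccr4, the receptor for Ccl22, had at most 1 read in the other 5 libraries and 38 reads in 12-week KO MΦs. Of the atypical receptors, which bind chemokines without G protein signalling, Ccrl2 alone passed the filter, with 30418 and 102380 normalized counts in Het and KO MΦs at 12 weeks and no gap over 1.22-fold at 1 or 3 weeks. Receptor RNA for the CCR2 and CCR1 ligands was thus not lower in the 12-week KO library.

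**Figure D4:**
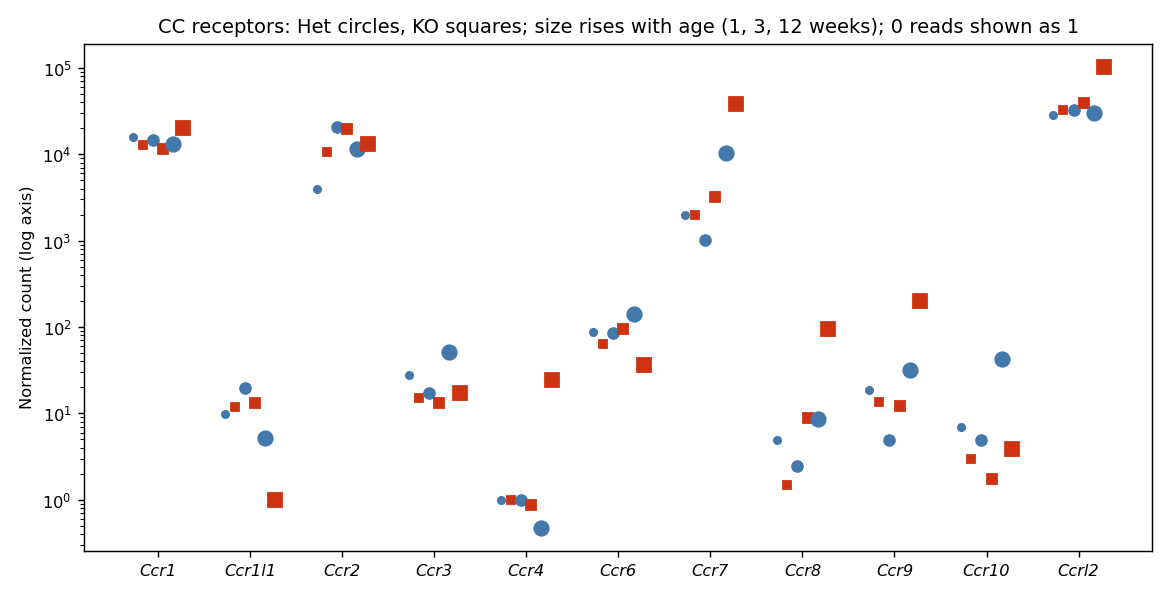
Normalized counts (log axis, 0 reads shown as 1) of 10 CC receptors and Ccrl2 in the 6 libraries, with blue circles for Het and red squares for KO MΦs and larger marks for older mice. Ccr7, Ccr8, Ccr9 and Ccrl2 have their highest point in the 12-week KO library, and the lowest point of Ccr2, 3960, is the 1-week Het library.

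Genes of the pathways that drive chemokine transcription were set beside the ligands. Of 15 interferon response genes, 3 were higher in KO MΦs at 1 week (median log2 ratio -0.71), 15 at 3 weeks (0.67) and 11 at 12 weeks (1.43). The shares of all genes higher were 46.0%, 52.1% and 52.0%. Over 3-fold lower were 3 at 1 week, beside 0.75% of all genes. Over 3-fold higher were 5 at 3 weeks and 6 at 12 weeks, beside 1.34% and 4.03%. The medians had the order of signs seen for Ccl5, but Ifit1, Ifit2 and Ifit3 were lower in KO MΦs at 12 weeks (log2 ratios -1.29, -0.75 and -0.34). Of 12 feedback targets of NF-kappaB, 9 were higher in KO MΦs at each age, beside the same shares of all genes higher, with medians of 0.23, 0.27 and 0.45. At 12 weeks 1 was over 3-fold higher, beside 4.03% of all genes. The CCR2 ligands were lower in KO MΦs at 12 weeks, where the median of either list was positive. The part of these pathways in the ligand levels was not tested.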

How the data were processed

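RNA-seq was analysed in 6 libraries of P3/P4 MΦs, grouped by the genotype and age in the labels. The authors sequenced single-end reads of 75 bases, trimmed them (Trim Galore) and mapped them to mm10 (TopHat, default settings). The authors then divided gene counts from HTSeq by the size factors of DESeq. Tool versions, annotation and strand setting were not given in the sources used here. The deposited values are this normalized signal per gene, with 0 shown as 1 (all per-sample columns were used). Apart from the 1s, values in a library fell on whole multiples of a single step (within 0.1 of a step), from which reads were read back, 6700337 to 40754971 per library. A 1 was taken as 0 reads.

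Within an age, log2 ratios carry exact Clopper-Pearson 95% intervals of the reads, which cover counting error only. Genes over 3-fold were counted among the 11067 at 50 or more normalized counts in at least 1 library. Across ages, limma 3.58.1 (R 4.3.3) was fitted on log2 of the value plus 1 to all of these genes, with genotype and age as terms, a mean-variance trend, 2 residual and 3.56 prior degrees of freedom, and Benjamini-Hochberg adjustment. Nothing pairs libraries beyond age, and each genotype and age has 1 library. The p-values therefore rest on how far the gap between genotypes varied between ages, not on a spread between mice. Gene coordinates are from GENCODE vM21 (14085 of 14097 genes found) and upstream sequences from RefSeq. Python 3.11.15 with numpy 2.4.6, pandas 2.3.3, scipy 1.17.1 and matplotlib 3.10.9 did the rest, and the fits, intervals and motif search were tested on simulated data.

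The genes named are the 10 ligands, members of the lists reported, Il10rb, and for each ligand the 2 genes outside the CC ligands with the nearest pattern. The ligands and all lists were chosen with earlier results of these data known. Of the CC receptor genes, 1 is not reported here. Alternatives were other scalings (TMM, total reads), a pseudocount of 10, no filter, each age left out, and moderation without the trend.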

Additional observations from a re-analysis of the deposited data

Results flagged for a closer look

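For 6 ligands the KO over Het log2 ratio had opposite signs at 2 ages, each with a counting interval that left out 0. The ratio is positive at 1 week and negative at 12 weeks for 5 of them, and the 2 ratios lie apart by 0.646 for Ccl3, 2.77 for Ccl6, 5.75 for Ccl7, 3.69 for Ccl8 and 2.26 for Ccl9 on the log2 scale. Ccl5 turned the other way, from -1.22 at 1 week to 1.57 at 12 weeks, a difference of 2.79. Such turns were not counted over all genes, so no share stands beside the 6 ligands. The counting intervals left out 0 for 9, 10 and 10 of the 10 ligands at 1, 3 and 12 weeks. With 1 library per genotype and age the differences between ages were not tested, and at 1 week the Y-linked genes set the 2 pools apart as well. Of the 10 fibroblast and endothelial genes, 8 were higher in the 1-week KO pool (median log2 ratio 1.95), 6 of them over 3-fold. So were all 11 epithelial genes past the filter (median 1.60), with 6 over 3-fold, beside 2.75% of all genes. Of 7 B and plasma cell genes 1 was higher (median -0.94), where 46.0% of all genes were higher. The part of these cells in the turns was not tested.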

How the results depend on the processing

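Across ages, none of the 10 ligands passed the limma test of genotype or age under any setting run. The number of all genes called for genotype, 0 in the reported fit, was 1 with a pseudocount of 10 and between 3 and 61 with an age left out (20 without 1 week, 3 without 3 weeks, 61 without 12 weeks). For age it was 187 in the reported fit, 295 with a pseudocount of 10, 3 with scaling by total reads and 0 with moderation without the trend, a setting chosen after seeing the data. The cause was not tested. Scaling by total reads moved the 12-week median of all genes from 0.04 to -0.19 and that of the ligands from -1.22 to -1.44. It turned the sign of small age ratios, to -0.11 for the ligands' median, -0.012 for Ccl7 and -0.22 for Ccl2 from 3 to 12 weeks in Het MΦs, to -0.13 for Ccl12 from 1 to 3 weeks in Het MΦs, and to -0.12 for Ccl9 from 3 to 12 weeks in KO MΦs. Counts of ligands over 3-fold were the same under each scaling and with a pseudocount of 10. The edgeR alternatives were not run, because the deposited values are normalized and show 0 as 1. The limma test of genotype already compares the libraries within each age.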
